A study of Mus musculus with 10 samples.

Results

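Interferon-stimulated genes are the genes that cells switch on when they sense interferon, and 38 of them were followed here by symbol in a table of 36144 mouse genes. All 38 symbols were found, 33 had a mean of at least 1 TPM (an abundance scaled by transcript length and library total) over the 6 RNA libraries and were tested, and 5 lay below that level and are given by value only. The series grew primary vascular smooth muscle cells from the aortas of 8-week-old male mice. RNA came from 3 mice with Adamts7 overexpression, which the series describes as Myh11-Cre-ERT2 mice and the labels as specific to vascular smooth muscle, and from 3 wild-type mice. ATAC-seq, an assay of open chromatin, came from 2 mice of each genotype and was deposited pooled per genotype. Adamts7 encodes a secreted metalloprotease, and the title of the series concerns smooth muscle foam cells in atherosclerosis.

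Myh11-Cre-ERT2 is a recombinase driven by the smooth muscle myosin promoter and active only with tamoxifen. No driver is named for the wild-type mice, and no tamoxifen dose is given in the sources used here for either genotype, so driver, drug and overexpression cannot be told apart. Both genotypes were cultured from the media after enzymatic removal of the adventitia, in serum, between passages 2 and 7, with 1 batch label for every library. Titles of the RNA libraries from overexpression mice start with WT, although their genotype label names overexpression. Adamts7 itself stood at 98.7, 79.1 and 75.8 TPM in the libraries labelled overexpression, against 6.08, 6.18 and 8.20 TPM in those labelled wild type, so the targeted gene followed the genotype label (log2 fold change 3.45, limma adjusted p = 0.000357). Smooth muscle markers were present, with Acta2 at 1393 to 2335 TPM in overexpression and 1209 to 1291 TPM in wild-type libraries, but the endothelial sialomucin gene Emcn was of like abundance, at 840 to 1443 TPM in overexpression and 1825 to 2164 TPM in wild-type libraries. Each library is bulk RNA, so fewer cells of a type and less RNA per cell cannot be told apart.

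Type I interferons bind the IFNAR receptor, whose kinases JAK1 and TYK2 phosphorylate STAT proteins. With IRF9 these form a complex that binds the interferon-stimulated response element, a repeat of the letters GAAA, in target promoters. Interferon gamma acts through its own receptor and a different element, the gamma-activated site, and drives GTPases of the GBP and IRG families. Many of these genes keep a low tonic level in unstimulated cells, and in vascular tissue smooth muscle, endothelium and macrophages can all express them.

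The response element was seen in 15 of the 38 members, and 6 of these promoter stretches are printed because their genes include some that lay higher, some that lay lower and some that overlapped in overexpression cultures. A core of GAAANNGAAA, or TTTCNNTTTC on the other strand, overlapping copies included, was searched in RefSeq promoter windows of 250 bases before to 50 bases after the start site (GRCm38.p6). It was found in 15 of the 26 members that have a window (57.7%), against 1079 of 27025 genes with a window (3.99%). Capitals mark the core matches, read 5′ to 3′ on the gene's strand.
Isg15: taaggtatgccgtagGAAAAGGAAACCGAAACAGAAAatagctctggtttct
Oas1a: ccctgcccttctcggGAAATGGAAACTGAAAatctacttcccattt
Bst2: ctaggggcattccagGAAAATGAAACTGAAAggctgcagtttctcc
Irgm1: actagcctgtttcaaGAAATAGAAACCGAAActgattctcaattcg
Igtp: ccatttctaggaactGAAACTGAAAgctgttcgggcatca
Ifit3: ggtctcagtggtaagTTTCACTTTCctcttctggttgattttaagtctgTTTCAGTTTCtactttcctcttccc

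These stretches lie at chr4:156200860-156200911 (Isg15, minus strand), chr5:120907515-120907560 (Oas1a, minus), chr8:71537572-71537617 (Bst2, minus), chr11:48871420-48871465 (Irgm1, minus), chr11:58199507-58199546 (Igtp, plus) and chr19:34583358-34583431 (Ifit3, plus), in GRCm38.p6. Isg15 carried 3 overlapping cores, Oas1a, Bst2 and Irgm1 carried 2 overlapping cores each, Ifit3 carried 2 separate ones and Igtp 1. The gamma-activated core TTCNNNGAA, which reads the same on both strands, was found in 9 of the 26 members (34.6%), against 2582 of 27025 genes (9.55%). A match is a description of letters, not a measured site. The 14 tested members with a response-element core had a median log2 fold change of -0.013, the 11 with none in the window -0.025, and the 8 with no window in the table -0.029. The set with a core held members of both signs, from Isg15 at 0.50 to Igtp at -0.38.

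**Figure D1:**
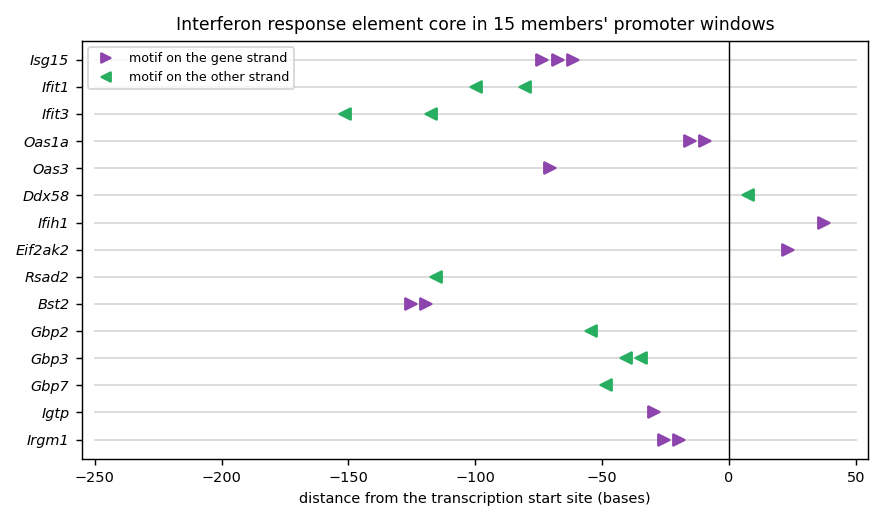
Positions of the response-element core in the promoter windows of the 15 members that hold it, in bases from the start site (vertical line), with arrowheads by strand. Cores of 12 members lie before the start site and those of Ddx58, Ifih1 and Eif2ak2 after it.

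No interferon-stimulated gene passed the test between genotypes, and the shares with small p-values or separated libraries were close to or below those of genes in general. Of the 33 tested members 14 had a higher and 19 a lower mean log2 level in overexpression cultures, where 51.7% of all genes tested were lower. Their median difference on log2(TPM + 1), overexpression minus wild type, was -0.025, against -0.0090 over all 13131 genes tested. With limma 0 members were called at an adjusted p under 0.05, against 2 of 13131 genes (0.0152%). With library weights limma called 3 of 33 members and 2728 of 13131 genes, and the members' median was 0.045. These weights come from each library's scatter about its genotype mean in the same values, not from a separate measure of quality. Without overexpression replicate 3 limma called 1 of 35 members and 828 of 13141 genes. At an unadjusted p under 0.05 there were 2 members higher in overexpression, 6.06% of those tested against 10.6% of all genes, and 3 lower, 9.09% against 8.94%. For 2 members (6.06%) every overexpression library lay above every wild-type library, against 14.3% of all genes, and for 4 (12.1%) every one lay below, against 12.9%. On log2(TPM + 1) the size of any difference was bounded for most members. The 95% interval of the log2 fold change, not adjusted over genes, lay within -1 and 1 for 32 of the 33, the exception being Isg15, and within -0.5 and 0.5 for 18 of them, against 91.0% and 64.8% of all genes. These are not bounds on TPM ratios of low members, whose changes this scale understates. Oasl1 (mean 1.12 TPM) had a log2 fold change of -0.14, or -0.26 with 0.1 added in place of 1.

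**Figure D2:**
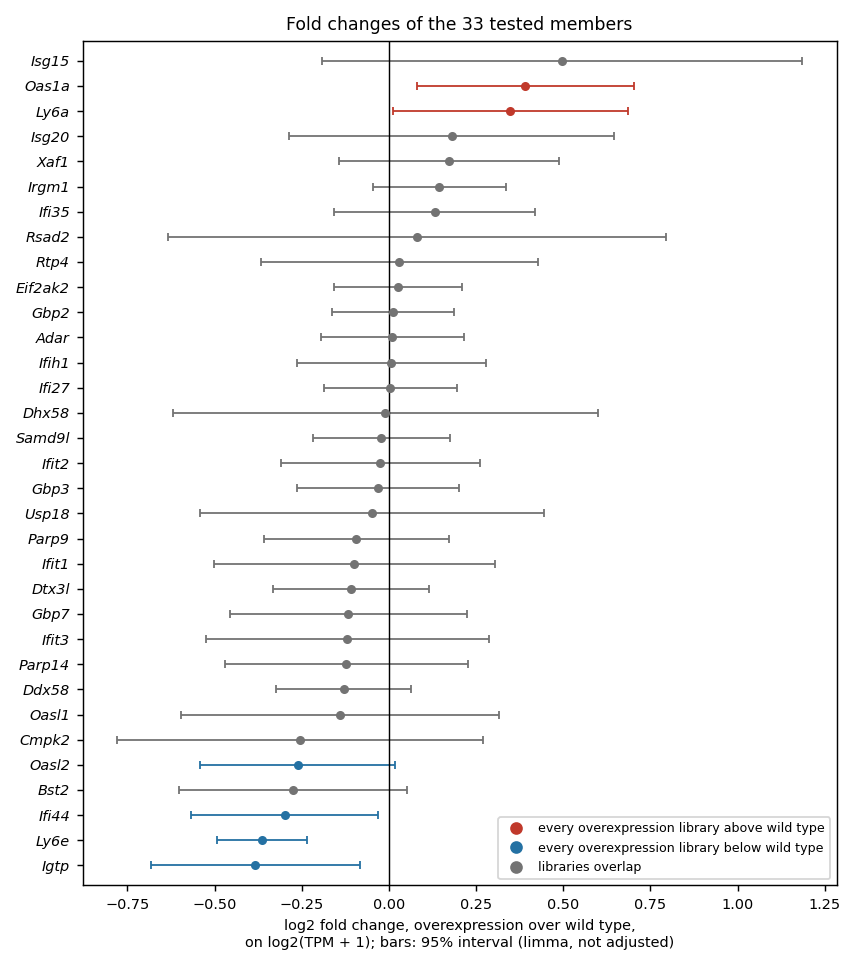
Log2 fold change of each of the 33 tested members, overexpression over wild type on log2(TPM + 1), with its unadjusted 95% interval. Isg15 (0.50) and Igtp (-0.38) mark the ends, and colour shows the 2 members with every overexpression library above wild type and the 4 with every one below.

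Abundance of the members in these cultures ran from a mean of 0.337 TPM for Oas2 to 407 TPM for Ly6e. Their median was 10.3 TPM, against 21.4 TPM over all genes tested, and 21 members reached 10 TPM and 3 reached 100 TPM. Those 3 were Ly6e, Bst2 and Ifi27, of rank 357, 592 and 904 among all genes, and together they held 57.6% of the members' summed TPM in overexpression and 62.5% in wild-type cultures. The summed level of all 38 was 1251 to 1341 TPM in overexpression libraries, below the 1360 to 1502 TPM of wild-type libraries. Without Ly6e and Bst2 the sums were 713 to 745 TPM in overexpression and 685 to 728 TPM in wild-type libraries, which overlapped. Both genes were picked for this after their values were seen.

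**Figure D3:**
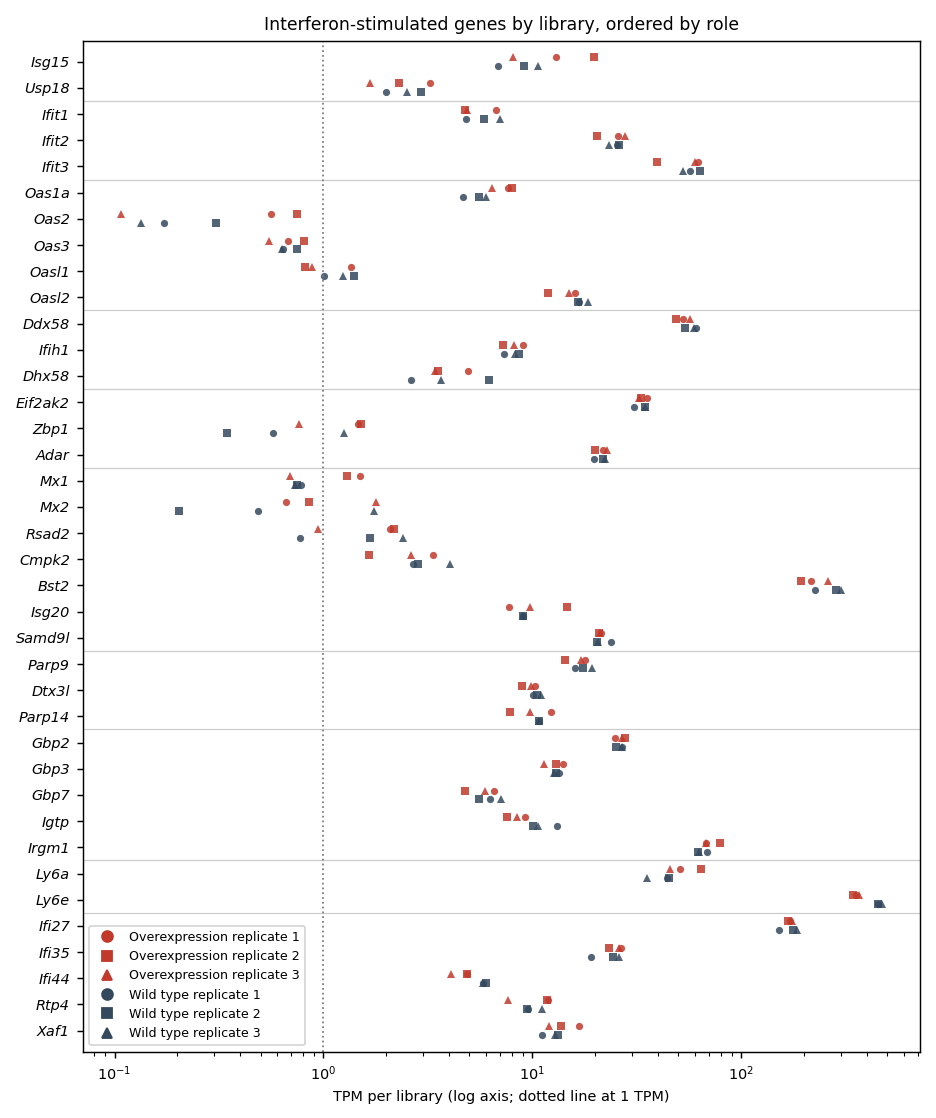
TPM of each of the 38 members in each library on a log axis, ordered by role, with overexpression above wild type in each row. Ly6e, Igtp, Ifi44 and Oasl2 separate with overexpression lower, Oas1a and Ly6a with overexpression higher, and Oas2, Oas3, Zbp1, Mx1 and Mx2 lie around or below 1 TPM.

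Ly6e showed the most regular difference of the group. It encodes a surface protein anchored by a lipid tail, which restricts coronaviruses and is a receptor for syncytin-A in the mouse placenta, and lies at chr15:74955025-74959904. Its level was 356, 345 and 367 TPM in overexpression libraries, against 450, 451 and 474 TPM in wild-type libraries. The highest overexpression library lay well below the lowest wild-type library, and the spread within each genotype was small (355.9 ± 11.1 TPM in overexpression and 458 ± 13.4 TPM in wild type, SD, n = 3 each). Its log2 fold change was -0.36 ± 0.055 (SE; limma adjusted p = 0.128). Permuting the 6 libraries exactly (20 regroupings, two-sided) gave p = 0.1, which is as low as 3 mice against 3 can go. Every gene whose libraries separate fully gives this value, so it does not set Ly6e apart from other separated genes. Of all genes tested, 14.3% separated with overexpression higher and 12.9% with overexpression lower. Ly6e passed limma's threshold without overexpression replicate 3 (adjusted p = 0.0208), where 828 of 13141 genes passed. It also passed with library weights, where 2728 of 13131 genes passed. Its limma adjusted p spanned 0.00573 to 0.354 over the alternatives.

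Its neighbour on chromosome 15, Ly6a, lay the other way. Ly6a encodes Sca-1, a surface marker of mouse stem and progenitor cells that endothelial cells also carry. It stood at 50.8, 64.1 and 45.4 TPM in overexpression libraries, against 44.0, 45.1 and 35.6 TPM in wild-type libraries. The groups were separated only by the gap between overexpression replicate 3 and wild-type replicate 2, and the log2 fold change was 0.35 ± 0.14 (SE; limma adjusted p = 0.247). Without overexpression replicate 2 the log2 fold change of Ly6a was 0.21. Ly6a and Ly6e thus differed in sign. Ly6c1, a related gene that is no member and was named after its values were seen, had 8.62, 11.9 and 12.3 TPM in overexpression and 14.8, 14.8 and 13.6 TPM in wild-type libraries.

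Among the interferon-inducible GTPases, which attack vacuoles holding intracellular pathogens, libraries of Igtp separated with overexpression lower and those of the other 4 genes overlapped. Igtp, also called Irgm3, a regulator of the IRG family, had 9.26, 7.55 and 8.43 TPM in overexpression libraries and 13.2, 10.1 and 10.7 TPM in wild-type libraries. All overexpression libraries lay below all wild-type ones, with wild-type replicate 1 the highest. The log2 fold change was -0.38 ± 0.13 (SE; limma adjusted p = 0.186), or -0.23 with library weights. Irgm1, its relative and the most abundant member of the family here, had 67.9, 78.8 and 68.0 TPM in overexpression and 68.4, 62.2 and 63.0 TPM in wild-type libraries. These overlapped, and its log2 fold change of 0.14 ± 0.081 (SE) had the opposite sign. The guanylate-binding protein genes Gbp2, Gbp3 and Gbp7, neighbours on chromosome 3, had log2 fold changes of 0.012, -0.032 and -0.12. Gbp7 had 4.73 to 6.56 TPM in overexpression and 5.57 to 7.07 TPM in wild-type libraries. Gbp2 stood at 25.0, 27.7 and 26.7 TPM in overexpression and 26.9, 25.1 and 26.7 TPM in wild-type libraries. Igtp and Irgm1, both with a response-element core near the start site in the stretches above, thus took opposite signs.

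The oligoadenylate synthetases, which make the second messenger that activates RNase L on double-stranded RNA, and their OAS-like relatives did not share a direction. Oas1a had 7.67, 8.01 and 6.42 TPM in overexpression libraries and 4.64, 5.53 and 5.98 TPM in wild-type libraries. Every overexpression library lay above every wild-type library, and the log2 fold change was 0.39 ± 0.13 (SE; limma adjusted p = 0.191). Oasl2, an OAS-like protein gene, had 15.98, 11.9 and 14.96 TPM in overexpression and 16.8, 16.5 and 18.4 TPM in wild-type libraries. It lay below wild type in every overexpression library, lowest in replicate 2, with a log2 fold change of -0.26 ± 0.12 (SE; limma adjusted p = 0.278). This was -0.15 without overexpression replicate 2 and -0.13 with library weights. Oasl1, known in mice to restrain translation of the factor IRF7, overlapped at 0.81 to 1.36 TPM in overexpression and 1.00 to 1.41 TPM in wild-type libraries. Oas2 and Oas3 were too low to be tested. Oas2 had 0.563, 0.745 and 0.107 TPM in overexpression libraries and 0.172, 0.304 and 0.133 TPM in wild-type libraries, so overexpression replicates 1 and 2 were highest and replicate 3 lowest. Oas3 was at 0.550 to 0.809 TPM in overexpression and 0.635 to 0.750 TPM in wild-type libraries. The mouse has several near copies of Oas1a, between which reads may be divided in these estimates: Oas1b, Oas1c and Oas1g, named outside the naming rule, had mean levels of 2.56, 4.93 and 0.927 TPM in overexpression and 2.27, 5.19 and 0.407 TPM in wild-type cultures.

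Isg15 had the largest fitted fold change of the tested members, which rested on overexpression replicate 2. It encodes a ubiquitin-like protein that is both secreted and conjugated to other proteins, and Usp18 encodes the protease that removes it and that also blocks the type I receptor. Isg15 stood at 13.0, 19.7 and 8.05 TPM in overexpression libraries, against 6.88, 9.14 and 10.6 TPM in wild-type libraries. Overexpression replicates 1 and 2 exceeded every wild-type library, and replicate 3 fell among them. The log2 fold change was 0.50 ± 0.29 (SE; limma adjusted p = 0.390), with an interval from -0.19 to 1.19. It was 0.20 without overexpression replicate 2, below the 0.33 of Oas1a in the same fit, and 0.80 without overexpression replicate 3. Usp18 overlapped between genotypes, with 3.23, 2.29 and 1.67 TPM in overexpression and 2.00, 2.92 and 2.50 TPM in wild-type libraries.

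The IFIT proteins, which bind viral RNA that lacks the host's cap marks, overlapped between genotypes. Ifit3, the most abundant of them, had 62.2, 39.4 and 60.3 TPM in overexpression and 56.8, 63.5 and 52.7 TPM in wild-type libraries. Ifit2 had 25.8, 20.4 and 27.8 TPM in overexpression and 25.6, 26.1 and 23.2 TPM in wild-type libraries, and Ifit1 had 4.75 to 6.72 TPM in overexpression and 4.82 to 6.99 TPM in wild-type libraries. All 3 genes, which lie together on chromosome 19, were lowest in overexpression replicate 2, and their log2 fold changes were -0.12, -0.025 and -0.099. Ifit3 has a near copy, Ifit3b, named outside the naming rule, with which it may share reads. Ifit3b had 12.7, 6.93 and 12.7 TPM in overexpression and 9.34, 12.98 and 11.01 TPM in wild-type libraries, likewise lowest in overexpression replicate 2.

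Sensors of foreign RNA overlapped between genotypes as well. Ddx58, which encodes RIG-I, a receptor for RNA with a triphosphate end, had 52.5, 48.7 and 57.0 TPM in overexpression and 60.6, 53.6 and 59.1 TPM in wild-type libraries, a log2 fold change of -0.13 ± 0.083 (SE). Ifih1, which encodes MDA5, the receptor for long double-stranded RNA, had 7.24 to 8.99 TPM in overexpression and 7.34 to 8.65 TPM in wild-type libraries. Dhx58 encodes LGP2, a relative that modulates both, and had 3.44 to 4.94 TPM in overexpression and 2.64 to 6.18 TPM in wild-type libraries. The kinase gene Eif2ak2 (PKR), which stops translation on double-stranded RNA, had 35.6, 33.1 and 32.5 TPM in overexpression and 30.6, 34.4 and 34.4 TPM in wild-type libraries. Adar, whose product edits adenosine in double-stranded RNA and keeps it from being sensed, was likewise steady at 19.8 to 22.7 TPM in overexpression and 19.7 to 22.3 TPM in wild-type libraries. Their log2 fold changes were 0.025 and 0.0093. Zbp1, which senses left-handed nucleic acid and can start necroptosis, was too low to be tested, at 1.47, 1.51 and 0.761 TPM in overexpression and 0.574, 0.344 and 1.25 TPM in wild-type libraries.

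Antiviral effectors ranged from Bst2, among the most abundant genes of the group, to the barely detected Mx genes. Bst2 encodes tetherin, which holds budding virus at the cell surface, and had 216, 194 and 259 TPM in overexpression and 225, 285 and 300.3 TPM in wild-type libraries. Overexpression replicate 3 lay above wild-type replicate 1, so the groups overlapped, and the log2 fold change was -0.28 ± 0.14 (SE; limma adjusted p = 0.320), or -0.18 without overexpression replicate 2. With library weights, under which 2728 of 13131 genes were called, Bst2 and Oas1a were called too (adjusted p = 0.0325 and 0.0247, limma). Over the alternatives the limma adjusted p of Bst2 spanned 0.0325 to 0.602 and that of Oas1a 0.0247 to 0.386. Isg20, an RNA exonuclease gene, had 7.74, 14.6 and 9.71 TPM in overexpression libraries and 9.04, 8.99 and 9.03 TPM in wild-type libraries. Its wild-type libraries were nearly equal and its overexpression libraries fell on both sides of them. Samd9l, which restrains translation and poxviruses, had 20.9 to 21.4 TPM in overexpression and 20.3 to 23.7 TPM in wild-type libraries. Rsad2 encodes viperin, which makes a chain-terminating nucleotide, and Cmpk2, its neighbour on chromosome 12, encodes a nucleotide kinase that supplies it. Rsad2 had 0.938 to 2.18 TPM in overexpression and 0.775 to 2.41 TPM in wild-type libraries, and Cmpk2 had 1.66 to 3.35 TPM in overexpression and 2.69 to 4.04 TPM in wild-type libraries.

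Mx1 and Mx2 encode dynamin-like GTPases that block virus replication, and both are annotated as transcribed pseudogenes in the C57BL/6J reference. Mx1 had 1.49, 1.30 and 0.692 TPM in overexpression libraries and 0.780, 0.745 and 0.728 TPM in wild-type libraries. Overexpression replicates 1 and 2 lay above wild type and replicate 3 below it. Mx2 had 0.662, 0.851 and 1.79 TPM in overexpression and 0.485, 0.204 and 1.74 TPM in wild-type libraries, and overlapped. With no filter on low values, Mx1, Mx2, Oas2, Oas3 and Zbp1 had log2 fold changes of 0.28, 0.27, 0.27, -6.2e-05 and 0.40 on log2(TPM + 1), and limma called none of them (adjusted p = 0.505, 0.754, 0.576, 1.0 and 0.534). That scale understates changes of genes this low. In the same order, the ratios of mean TPM, overexpression over wild type, were 1.55, 1.36, 2.32, 1.00 and 1.72.

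Parp9 and Dtx3l, which overlap on chromosome 16 and encode partners in an ADP-ribosylating ubiquitin ligase, and Parp14, their neighbour, overlapped between genotypes. Parp9 had 17.8, 14.4 and 17.2 TPM in overexpression and 15.96, 17.5 and 19.4 TPM in wild-type libraries. Dtx3l had 10.3, 8.93 and 9.82 TPM in overexpression and 10.1, 10.5 and 10.97 TPM in wild-type libraries. Parp14, whose wild-type libraries were nearly identical at 10.756 to 10.77 TPM, had 12.3, 7.86 and 9.73 TPM in overexpression libraries. Each of the 3 was lowest in overexpression replicate 2, and log2 fold changes were -0.094, -0.11 and -0.12.

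Of the remaining members, Ifi44 was the 1 that separated. Ifi44, which lies at chr3:151730922-151749910 and encodes an antiproliferative cytoplasmic protein, had 4.85, 4.86 and 4.07 TPM in overexpression libraries and 5.82, 6.002 and 5.79 TPM in wild-type libraries. All overexpression libraries lay below the narrow wild-type range, with a log2 fold change of -0.30 ± 0.11 (SE; limma adjusted p = 0.219). Ifi27, which encodes a small membrane protein, had 172, 168 and 175 TPM in overexpression and 152, 178 and 186 TPM in wild-type libraries, a log2 fold change of 0.0034. Ifi35, whose product binds the protein Nmi, had 23.2 to 26.5 TPM in overexpression and 19.1 to 26.0 TPM in wild-type libraries. Rtp4, a receptor chaperone gene, and Xaf1, which encodes an antagonist of the apoptosis inhibitor XIAP, overlapped as well, with log2 fold changes of 0.030 and 0.17. Rtp4 had 7.64 to 11.9 TPM in overexpression and 9.47 to 11.1 TPM in wild-type libraries, and Xaf1 had 11.997 to 16.8 TPM in overexpression and 11.1 to 13.3 TPM in wild-type libraries.

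**Figure D4:**
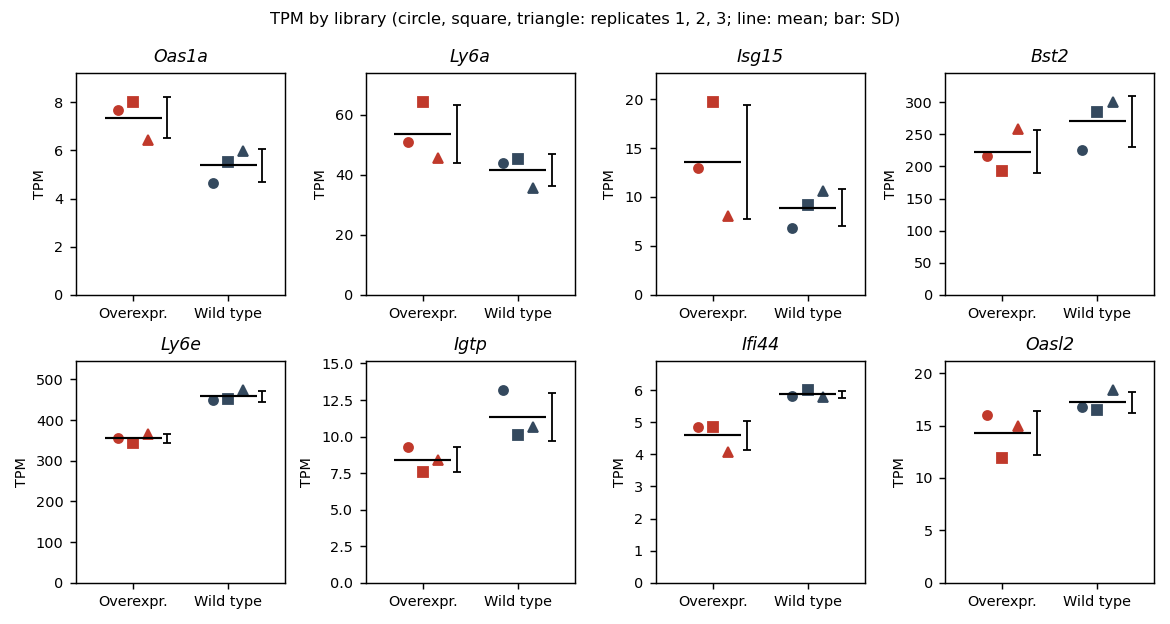
TPM in each library of 8 members, overexpression left and wild type right, with the mean (line) and SD (bar) of 3 libraries. Oas1a and Ly6a lie higher in overexpression, Ly6e, Igtp, Ifi44 and Oasl2 lower, and Isg15 and Bst2 overlap.

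No library held the whole group high or low. After subtracting each gene's wild-type mean log2(TPM + 1), the 33 tested members had medians of 0.073, -0.13 and -0.049 in overexpression replicates 1, 2 and 3, against -0.061, 0.028 and 0.048 in the wild-type libraries. The libraries overlapped, and the same median over all genes tested was -0.060 in overexpression replicate 2. Of the 38 members 15 had their lowest value in overexpression replicate 2, and 9 had their highest there, as did 9 in overexpression replicate 1. Wild-type replicate 3 held the highest value of 10 members and the lowest of 1. The same counts were not made over all genes, so whether they are particular to the members cannot be told.

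**Figure D5:**
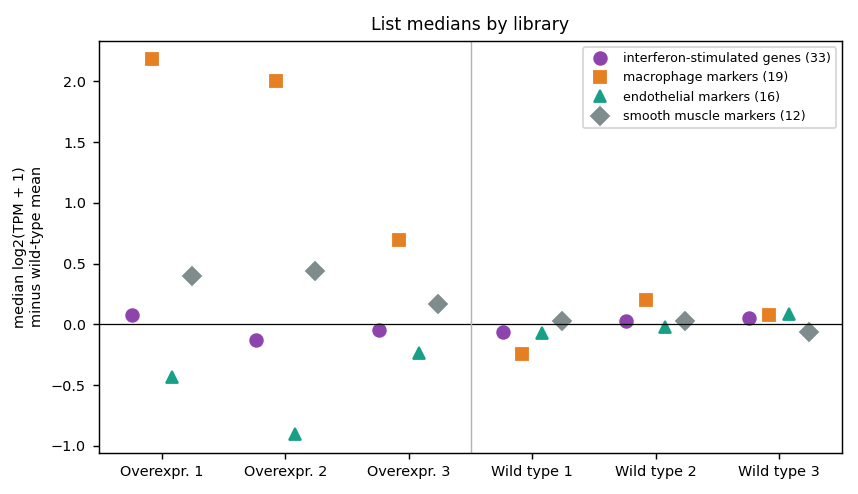
Median log2(TPM + 1) relative to the wild-type mean in each library for the tested interferon-stimulated genes and the macrophage, endothelial and smooth muscle markers. The interferon-stimulated genes stay between -0.13 and 0.073, while the macrophage markers reach 2.18, 2.00 and 0.69 in overexpression replicates 1, 2 and 3.

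Markers of other cell types differed between the same libraries, and the median log2 fold changes were 1.61 for macrophage, -0.49 for endothelial and 0.32 for smooth muscle markers. Of 21 macrophage markers 19 were tested, all 19 had an unadjusted p under 0.05 with higher levels in overexpression, and their summed level was 1236 to 3964 TPM in overexpression libraries and 519 to 765 TPM in wild-type libraries. Overexpression replicates 1 and 2 held 3964 and 3169 TPM and replicate 3 held 1236 TPM, and Cd163 stayed at or below 0.051 TPM in every library. Of 16 endothelial markers, all tested and none at 0, 15 had a lower mean log2 level in overexpression, 12 of them at an unadjusted p under 0.05, and their sum was 2630 to 4348 TPM in overexpression and 5145 to 5682 TPM in wild-type libraries, lowest in overexpression replicate 2. Smooth muscle markers, 7 of 12 at an unadjusted p under 0.05 and all 7 higher, summed to 4458 to 5718 TPM in overexpression and 3946 to 4041 TPM in wild-type libraries. For 1 of the 12 every overexpression library lay below every wild-type library. Of 9 fibroblast markers 5 were tested, with 1 higher and 2 lower at an unadjusted p under 0.05. Their log2 fold changes ran from -0.58 to 0.31, with a median of -0.096. That fibroblast median was 0.073 without wild-type replicate 3, -0.33 without overexpression replicate 3 and -0.46 with a minimum of 5 TPM. limma called no gene of these lists. Of all genes tested, 10.6% were higher and 8.94% lower in overexpression at an unadjusted p under 0.05. Isg15, Mx1, Oas2 and Oas1a were highest in overexpression replicates 1 and 2, as the macrophage markers were. In overexpression replicate 3 the macrophage sum still lay above every wild-type library, as did Oas1a at 6.42 TPM. There Isg15, at 8.05 TPM, fell among the wild-type libraries, and Mx1 (0.692 TPM) and Oas2 (0.107 TPM) lay below them. Ifit3, Oasl2, Parp14 and Bst2 were lowest in overexpression replicate 2, as the endothelial markers were. These members were picked after their values were seen, and others, such as Irgm1, followed neither order. Parp14 was highest of all libraries in overexpression replicate 1, at 12.3 TPM, where the endothelial sum of 3582 TPM lay below every wild-type library. The part of either cell type in these values was not tested. Among 14 markers of plasmacytoid dendritic cells, T cells and NK cells, Bst2 apart, 12 stayed below 1 TPM in every library and 5 of these were listed at 0 throughout, and Cd4 reached 1.52 TPM in wild-type replicate 2.

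Interferon ligand genes were all but silent in both genotypes. Of 10 type I, II and III interferon genes 8 were listed at 0 in every library. Ifnb1, the fibroblast interferon, was at 0.221 TPM in overexpression replicate 1 and at 0 elsewhere, and Ifna2 at 0.055 TPM in wild-type replicate 1 and at 0 elsewhere. The type I and type II receptors were expressed in both genotypes, and 5 of 6 receptor genes were tested. Their median log2 fold change was 0.022, or -0.059 without wild-type replicate 1 and 0.11 without overexpression replicate 2, and none was called by limma or had an unadjusted p under 0.05. Ifnar2, a chain of the type I receptor, had 84.4, 80.5 and 89.3 TPM in overexpression and 89.6, 89.8 and 98.2 TPM in wild-type libraries, and Ifngr1, a chain of the interferon gamma receptor, had 83.3 to 90.8 TPM in overexpression and 88.1 to 101.9 TPM in wild-type libraries. Ifnlr1, the receptor of type III interferon, stayed at or below 0.600 TPM.

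The kinases and transcription factors between receptor and target were present, and limma called 0 of 13, with 2 at an unadjusted p under 0.05 higher and 1 lower in overexpression, where 10.6% and 8.94% of all genes were higher and lower. The median log2 fold change of 0.045 was -0.00083 without wild-type replicate 3. Stat2 and Irf9, which belong to the type I complex and are named here outside the naming rule, overlapped between genotypes, with log2 fold changes of 0.16 and -0.013. Irf1, which interferon gamma induces and which drives GBP genes, had 19.1, 18.0 and 20.0 TPM in overexpression libraries, all below the 26.4, 22.9 and 23.9 TPM of wild-type libraries (log2 fold change -0.34 ± 0.085 SE, limma adjusted p = 0.133). Irf8, a factor of myeloid cells, had 9.38, 6.79 and 4.03 TPM in overexpression and 2.68, 2.80 and 3.64 TPM in wild-type libraries, in the same order as the macrophage markers in the overexpression libraries. Jak1 and Stat3, the most abundant of these genes, had log2 fold changes of -0.053 and 0.071.

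Of the upstream sensors and adaptors limma called 0 of 11 tested, and 2 had an unadjusted p under 0.05, both higher in overexpression (against 10.6% of all genes). The median log2 fold change of -0.10 was 0.036 with library weights, -0.15 without overexpression replicate 1 and -0.042 without overexpression replicate 2. Tlr7, an endosomal RNA sensor of myeloid cells, had 25.9, 17.9 and 10.6 TPM in overexpression and 5.12, 6.73 and 5.35 TPM in wild-type libraries, whereas the kinase gene Tbk1 overlapped at 35.4 to 41.7 TPM in overexpression and 36.9 to 45.2 TPM in wild-type libraries. Myd88, the adaptor of most Toll-like receptors, had a log2 fold change of 0.26 and Tlr4, the endotoxin receptor, -0.25. Of the negative regulators limma called 0 of 8, while 3 stood higher in overexpression at an unadjusted p under 0.05 (against 10.6% of all genes). Their median log2 fold change of 0.14 was 0.039 without wild-type replicate 1 and 0.24 with a minimum of 5 TPM. Ptpn6, the phosphatase SHP-1 of blood cells, had 33.9, 29.1 and 15.1 TPM in overexpression and 6.21, 8.89 and 6.52 TPM in wild-type libraries, and Samhd1, which degrades nucleotides and limits innate sensing, had 108, 111 and 106 TPM in overexpression and 90.6, 81.7 and 81.5 TPM in wild-type libraries. The macrophage sums given above were higher in the same overexpression libraries. Tlr7 and Ptpn6 fell from overexpression replicate 1 to 3, as those sums did, whereas Samhd1 was of like level in all 3. The part of macrophages in these values was not tested.

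In a further list of 41 interferon-induced genes outside the 38, more lay lower than higher in overexpression. limma called 0 of 39 tested, and at an unadjusted p under 0.05 there were 4 higher and 7 lower, beside 10.6% and 8.94% of all genes. By sign 13 were higher and 26 lower, where 51.7% of all genes tested were lower. For 9 of the 39 every overexpression library lay below every wild-type library, beside 12.9% of all genes. The median log2 fold change of -0.092 was -0.0048 with library weights, and leaving out overexpression replicate 1 or 2 gave -0.18 or -0.049. It was -0.14 with wild-type replicate 1 left out and under quantile scaling. Ifitm3, which blocks virus entry at endosomes, had 302, 323 and 322 TPM in overexpression libraries, below the 397, 378 and 401 TPM of wild-type libraries, with a log2 fold change of -0.31 ± 0.057 (SE; limma adjusted p = 0.128). Lgals9, a galectin gene, had 112, 96.1 and 115 TPM in overexpression and 129, 138 and 134 TPM in wild-type libraries. Ifitm2, a relative of Ifitm3 and the most abundant of the list, had 740, 796 and 799 TPM in overexpression and 811, 858 and 820 TPM in wild-type libraries. The endothelial sums were lower in the same overexpression libraries, and their part was not tested.

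The deposited footprint scores, which measure protection of motif sites in open chromatin, come with no replicates. In the authors' deposited table all 18 IRF and STAT motifs had a higher mean score in overexpression, as did 496 of all 879 motifs (56.4%). The score of the IRF9 motif was 0.202 in overexpression and 0.184 in wild-type cells. No test was made of these pooled values, and the table gives motifs, not the promoters of the 38 genes.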

How the data were processed

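RNA libraries were grouped by the genotype label, and replicate numbers are the mouse numbers of the titles. The authors deposited gene-level TPM from kallisto, per the labels. The submitters' processing notes name mm10, and the sources used here give neither the version, the annotation nor the number of reads. TPM are relative and keep no depth, so the sequencing depth is unknown and counting intervals could not be given; 13021 to 13214 genes reached 1 TPM per library. Near-identical genes divide reads by estimate.

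A filter kept genes averaging 1 TPM or more. Their log2(TPM + 1) values went into limma 3.58.1 (R 4.3.3, empirical Bayes with trend, two-sided, Benjamini-Hochberg over all 13131 genes, threshold 0.05). The fit was checked on simulated data, whose changes were larger than any fitted for a member, so the check does not cover small differences. Fold changes on this scale understate changes of low genes. The members, lists and tests were chosen with earlier results of these data known. All 38 members are named, and from each other list up to 4 genes, 2 by p-value and 2 by abundance, could be named, with exceptions stated.

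For ATAC-seq the authors deposited, per the file headers, mean footprint scores, counts of bound sites, a change score and a p-value per motif, pooled per genotype; the mean score was quoted, and the p-value and bound counts were not. Promoters and gene positions came from RefSeq (GRCm38.p6), where 26 of 38 members had a promoter window, read with Python 3.11.15. The mouse numbers did not pair libraries across genotypes. Alternatives were another pseudocount, other filters, quantile and median-of-ratios scaling, library weights, a replicate block and leaving out each library. Some values are not reported here.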

Additional observations from a re-analysis of the deposited data

How the results depend on the processing

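No member was called with a pseudocount of 0.1, with no filter on low values, with a minimum mean of 5 TPM, under quantile or median-of-ratios scaling, or with a replicate block. With library weights 3 members were called (Oas1a, Bst2 and Ly6e) and the median of members was 0.045; leaving out 1 library gave 0 to 1 called members (Ly6e without overexpression replicate 3) and medians of -0.085 (without overexpression replicate 1) to -0.0060 (without wild-type replicate 2). The count over all genes, 2, was 2728 with library weights, 1 with a minimum of 5 TPM, 1 with the replicate block, and 1 to 828 when 1 library was left out, 828 being without overexpression replicate 3; the cause was not tested. Same-numbered libraries had correlations of their deviations of -0.022, 0.058 and 0.018, so the block rests on a shared number only. Signs of uncalled members differed from those reported for 2 under quantile scaling, 14 with library weights and 1 to 8 when 1 library was left out. Members at an unadjusted p under 0.05 numbered 4 to 8 under the alternatives that keep every library and 2 to 6 when 1 was left out. Depth is unknown, and with 3 libraries per genotype small differences cannot be resolved.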
